A study of Mus musculus with 6 samples.

Results

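The p53 pathway genes examined here are 32 listed mouse genes, of the 49585 gene IDs in the count table. They were taken from the table by symbol as known members or targets of the pathway. The list was chosen with earlier results of these data known. All 32 were found, and 31 had enough reads to be tested among the 15812 genes kept for testing. Eda2r, a death receptor gene, was the exception. It had 0, 0 and 1 counts in the NT, Low and High libraries of leukemia K3174, and 32, 6 and 3 counts in those of K3117. By role the list holds 3 regulators (Trp53, Mdm2 and Mdm4), 8 genes of cell cycle arrest and growth control, 4 of stress response and metabolism, 5 of DNA repair and 12 of cell death.

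RNA-seq was done on mouse cells of acute myeloid leukemia that carry KMT2A-MLLT3. In this fusion the chromatin regulator KMT2A is joined to MLLT3, a protein that binds the H3K79 methyltransferase DOT1L. Marrow taken from moribund mice was given DOT1L by transduction, and cells expressing it at a high or a low level were sorted and collected after another 3 days. The labels DOT1L High, DOT1L Low and NT each hold 2 libraries, 1 from leukemia K3174 and 1 from leukemia K3117. All the leukemias carried the fusion and grew in DMEM with fetal bovine serum and mouse IL3, IL6 and SCF. The labels do not spell out NT, do not say whether its cells were transduced or sorted, and do not say whether each K number is a separate mouse. The vector, promoter and species of the introduced DOT1L are not stated either. If the K numbers are not separate mice, then the spread behind the p-values is that between these libraries and may be technical.

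p53, encoded by Trp53, is a transcription factor that is kept scarce by the ubiquitin ligase MDM2 and its partner MDM4. DNA damage and other stresses free it, and it then switches on genes that stop the cell cycle, repair DNA, alter metabolism or start cell death, together with Mdm2, which closes a feedback loop.

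Total counts were between 22908445 and 33265848 per library, and the 31 tested genes summed to between 1609 and 1895 CPM (a gene's counts scaled to a common library size, with TMM factors). Dot1l had 158.0, 152.0 and 136.4 CPM in the libraries labelled NT, Low and High of K3174, and 127.8, 183.7 and 149.8 CPM in those of K3117, so its counts did not follow the labels (High over NT log2 -0.00 ± 0.15 SE, adjusted p = 1.00, edgeR quasi-likelihood test). The groups are therefore named by their labels only, and whether the mouse gene's count holds the introduced DOT1L is not known. The leukemia cell markers Ptprc, Hoxa9, Meis1, Kit, Itgam and Spi1 were all expressed, and in High against NT Meis1 and Hoxa9 were called lower (0.442-fold and 0.595-fold) and Itgam, Spi1 and Kit higher (3.33-fold, 1.70-fold and 1.60-fold). Cd3e, Cd8a, Ms4a1, Col1a2, Col3a1, Lum and Cxcl12, which mark T cells, B cells and stroma, had 0 counts in all 6 libraries. Other genes of those lists were counted. The T and NK cell list summed to between 13.4 and 25.4 CPM in NT, 28.3 and 47.6 CPM in Low, and 43.8 and 55.1 CPM in High, with Nkg7 called higher (3.64-fold) and Lck lower (0.430-fold) in High against NT, both named after their values were seen. The B cell list summed to at most 17.2 CPM and the stromal list to at most 1.21 CPM in any library. Over all genes tested, 10% were called higher and 7.32% lower in High against NT. Of the late neutrophil markers, 11 of the 12 tested were called higher in High than in NT, and the 13 listed summed to between 26.1 and 120.6 CPM in NT, 114.4 and 1275 CPM in Low, and 1546 and 6902 CPM in High. Of the primary granule markers, 4 of 5 were called higher in High than in NT, and the list summed to between 1366 and 2771 CPM in NT, 3436 and 6035 CPM in Low, and 4554 and 6081 CPM in High. Mast cell and basophil markers summed to between 123.9 and 190.8 CPM in NT, 186.7 and 274.4 CPM in Low, and 449.8 and 786.7 CPM in High, with 4 of 5 tested called higher in High against NT. In Low against NT, 1 of these 5, Hdc, was called higher (3.63-fold) and the other 4 had log2 differences below 0. Of the 8 monocyte and macrophage markers, 3 were called higher in High against NT (Csf1r 2.64-fold, Adgre1 2.40-fold and F13a1 1.79-fold). Another 3 were called lower (Ccr2 0.432-fold, Ly86 0.485-fold and Cx3cr1 0.616-fold). Of the 4 erythroid markers tested, 0 were called higher and 1 lower (Hbb-bt, 0.377-fold). Markers of these lists differ between the labels as do the p53 pathway genes that changed, and their part in the results below was not tested. In bulk RNA, more cells of a type and more RNA per cell cannot be told apart.

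p53 binds DNA as a tetramer at pairs of a 10-base half-site, whose consensus has a central C, 2 bases that are A or T, and a G. RefSeq promoter windows on GRCm38.p6, from 250 bases before to 50 bases after a start site, were matched by symbol for 24 of the 32 genes (32 windows). An exact half-site was present in 11 of the 32 windows (34.4%), against 8.36% of all 32851 windows of the same length. A full site, here 2 half-sites with intact centres, at most 13 bases apart and with at most 3 mismatches in all, was present in 8 windows (25%), against 6.72% of all windows. The half-site consensus reads the same on both strands, so 1 search covers both. A match describes the letters only, and p53 sites outside these windows were not searched. The genes were listed as known members or targets of the pathway, so these shares are no test of the list. Windows of 1 gene can overlap, and the 2 windows of Aen hold the same site, which is counted in both.

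The sequences below show the 250 bases before the start for 5 genes that differ in their match or their call, 5′ to 3′ on the gene's own strand, with capitals marking the half-sites of the match. Cdkn1a, whose product p21 stops the cell cycle, holds the match with the fewest mismatches among the windows of these genes, 0 with a spacer of 12. It begins 73 bases before the first of 2 Cdkn1a start sites, and the window of the second holds no half-site or full site. The first window holds 2 full sites. The other one begins at the second marked half-site, has no spacer and ends in a half-site left in small letters. The Sesn1 match has 2 mismatches, a spacer of 3 and begins 186 bases before its start, and the half-sites of Gadd45a and Mdm2 begin 40 and 186 bases before theirs. Mdm2 is known to be driven by p53 from an internal promoter, which this window does not hold. The upstream bases of Cdkn1a lie at chr17:29090729-29090978 on the plus strand. The others lie at chr10:41887189-41887438 (plus) for Sesn1, chr6:67037408-67037657 (minus) for Gadd45a, chr10:117710759-117711008 (minus) for Mdm2 and chr19:34290409-34290658 (plus) for Fas.
Cdkn1a (full site, not called): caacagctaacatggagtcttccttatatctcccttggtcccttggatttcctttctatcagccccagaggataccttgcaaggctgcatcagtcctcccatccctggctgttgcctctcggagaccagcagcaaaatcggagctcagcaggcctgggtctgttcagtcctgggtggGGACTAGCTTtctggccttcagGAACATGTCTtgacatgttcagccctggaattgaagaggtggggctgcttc
Sesn1, second start site (full site, called lower): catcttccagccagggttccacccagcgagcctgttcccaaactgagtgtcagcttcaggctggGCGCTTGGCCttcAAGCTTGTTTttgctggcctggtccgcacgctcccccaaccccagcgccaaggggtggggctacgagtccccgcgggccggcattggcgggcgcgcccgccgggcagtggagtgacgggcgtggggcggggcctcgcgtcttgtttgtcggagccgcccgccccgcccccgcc
Gadd45a (half-site, called higher): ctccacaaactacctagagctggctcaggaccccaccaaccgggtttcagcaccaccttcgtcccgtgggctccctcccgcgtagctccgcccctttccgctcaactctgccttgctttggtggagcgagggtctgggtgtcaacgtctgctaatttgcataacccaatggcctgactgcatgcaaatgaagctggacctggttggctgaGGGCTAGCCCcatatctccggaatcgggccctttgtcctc
Mdm2 (half-site, called higher): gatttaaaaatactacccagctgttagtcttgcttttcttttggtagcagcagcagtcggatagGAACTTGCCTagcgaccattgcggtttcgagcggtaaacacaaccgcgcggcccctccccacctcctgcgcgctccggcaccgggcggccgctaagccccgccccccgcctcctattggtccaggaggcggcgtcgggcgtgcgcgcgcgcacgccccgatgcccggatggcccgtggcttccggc
Fas (neither, called higher): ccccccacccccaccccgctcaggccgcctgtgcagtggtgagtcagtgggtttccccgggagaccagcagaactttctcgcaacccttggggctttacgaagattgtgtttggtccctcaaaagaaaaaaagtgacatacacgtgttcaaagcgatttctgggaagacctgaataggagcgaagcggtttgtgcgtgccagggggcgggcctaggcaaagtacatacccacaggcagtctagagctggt
Full sites with no spacer, like the second one of Cdkn1a, were also found in windows of Ckap2, Aen and Bbc3. The Aen site begins 10 bases after the start of its first window and 121 bases before that of its second. These sites are shown because the main edgeR fit called none of these 3 genes in any comparison of the labels, though DESeq2 called Bbc3 lower in High against NT.
Ckap2 (2 mismatches): AGACATGTCCTGACTTGTCA
Aen (3 mismatches): GGGCTTGTCCGGGCAAGGAG
Bbc3 (3 mismatches): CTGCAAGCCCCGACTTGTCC
Of the 7 genes with a full site in a window (Trp53, Mdm4, Cdkn1a, Ckap2, Sesn1, Bbc3 and Aen), 0 were called higher and 1 lower in High against NT by edgeR. Of the 5 with a half-site alone, 2 were called higher (Gadd45a and Mdm2), and of the 12 with neither, 3 were called higher (Fas, Btg2 and Apaf1) and 1 lower (Phlda3). Over all genes tested, 10% were called higher and 7.32% lower. With 5 to 12 genes per class, a link between sites and calls was not tested. The 12 include Eda2r, which was not tested. Perp, Zmat3, Rrm2b, Xpc, Ddb2, Pmaip1, Tnfrsf10b and Trp53inp1 had no window and are in none of these counts.

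The libraries labelled High were first compared with NT. Perp, Fas, Gadd45a, Btg2, Apaf1 and Mdm2 rose, Sesn1 and Phlda3 fell, and the other 23 genes did not pass the test, among them Trp53, Cdkn1a, Pmaip1 and Bbc3. The 8 called genes were 25.8% of the 31 tested, at a Benjamini-Hochberg adjusted p of 0.05 in edgeR's quasi-likelihood test, where 17.3% of all genes tested were called. Of all genes, 10% were called higher and 7.32% lower. The median log2 fold change of the 31 genes was 0.02, against -0.01 for all genes tested, with 16 genes above 0 and 15 below. The list as a whole thus lay near the background, and its calls were a few genes with changes of up to 5.24-fold.

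**Figure D1:**
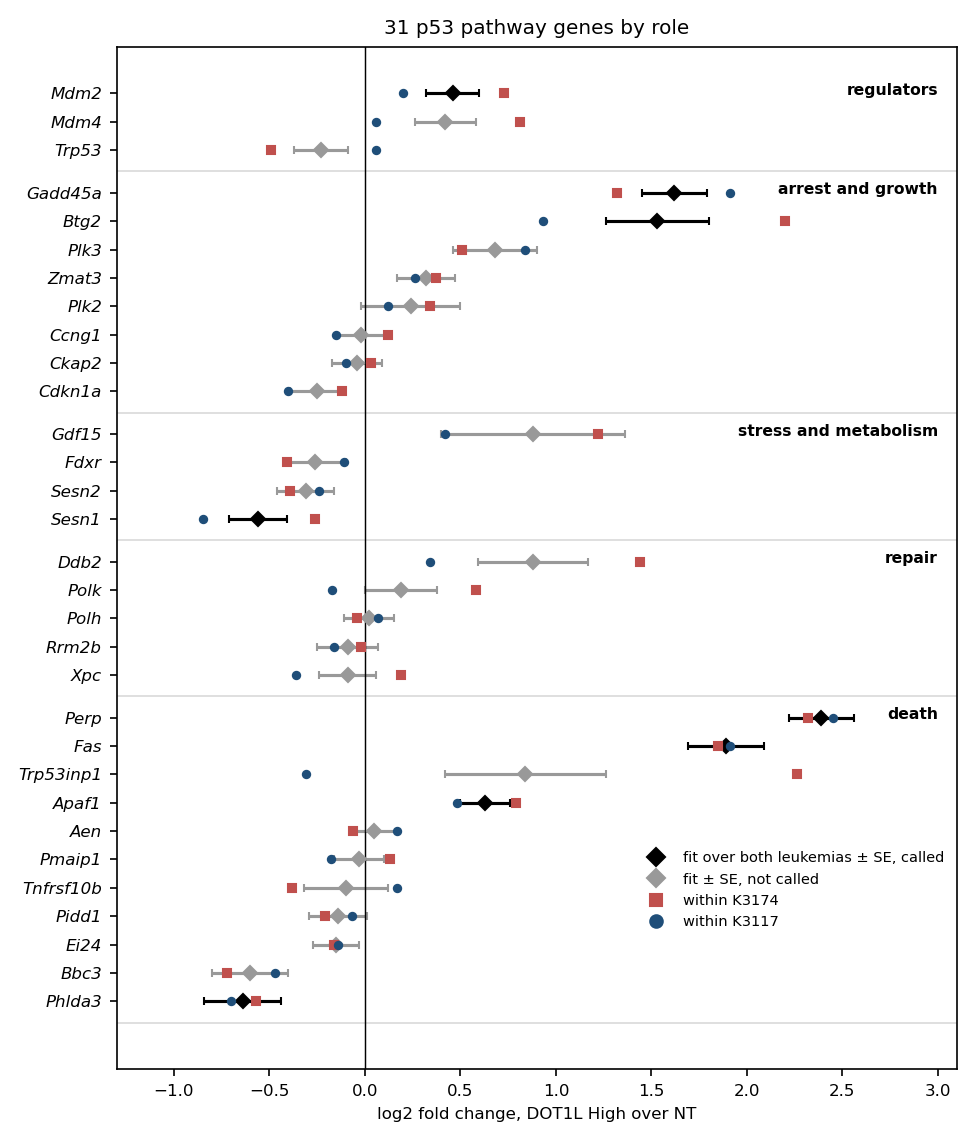
Log2 fold change of High over NT for the 31 tested p53 pathway genes, grouped by role; diamonds with bars are the fit over both leukemias ± SE (black where called), squares and circles the difference within K3174 and within K3117. The called genes Perp, Fas, Gadd45a and Btg2 stand furthest to the right, 3 of the 5 roles hold called genes with higher levels, and no repair gene is called.

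Among the regulators, Trp53 did not pass the test. It had 258.9, 217.4 and 183.9 CPM in the NT, Low and High libraries of K3174, and 211.0, 253.9 and 219.6 CPM in those of K3117 (chromosome 11, 69580359 to 69591873, plus strand, GRCm38). The High over NT fold was 0.855, with a 95% interval of 0.687 to 1.07 (log2 -0.23 ± 0.14, adjusted p = 0.35, edgeR). The High and NT libraries overlapped, and the difference had opposite signs in the 2 leukemias. Without the K3117 NT library it passed at -0.49 (adjusted p = 0.0027).

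Mdm2, the ligase that degrades p53 and itself a p53 target (chromosome 10, 117688875 to 117710758, minus strand), had 75.2, 95.9 and 124.4 CPM in NT, Low and High of K3174, and 84.1, 78.8 and 96.9 CPM in K3117. Both High libraries lay above both NT libraries. Mdm2 rose 1.37-fold in High (log2 0.46 ± 0.14, adjusted p = 0.045, edgeR, n = 2 per label). Leaving out the NT library of K3174 ended the call (0.23, adjusted p = 0.27), as did leaving out its High library (0.31, adjusted p = 0.48), and so did scaling with library sizes alone (adjusted p = 0.087) or upper quartile factors (adjusted p = 0.10) and a minimum mean of 5 CPM (adjusted p = 0.069).

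Mdm4, which binds p53 and blocks its activity, had 129.7, 183.9 and 226.6 CPM in NT, Low and High of K3174, and 155.2, 149.4 and 161.4 CPM in K3117. High lay above NT in both leukemias, by 0.81 in K3174 and 0.06 in K3117 on the log2 scale. The fit gave 0.42 ± 0.16 and did not pass (adjusted p = 0.099, edgeR). It passed when either K3117 NT (0.76, adjusted p = 1.2e-05) or K3117 High (0.65, adjusted p = 0.016) was left out.

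Of the 8 arrest and growth genes, 2 rose in High against NT and 0 fell, where 10% of all genes tested were called higher and 7.32% lower. Gadd45a, a stress sensor that acts on the G2 checkpoint and on stress kinases (chromosome 6, 67035096 to 67037457, minus strand), had 19.9, 35.4 and 49.8 CPM in NT, Low and High of K3174, and 9.95, 18.7 and 37.5 CPM in K3117. The level followed the order of the labels in both leukemias, and both High libraries lay above both NT libraries. Gadd45a rose 3.07-fold (log2 1.62 ± 0.17, adjusted p = 5.6e-05, edgeR). It shares 337 bases of exon with E230016M11Rik on the opposite strand, whose reads cannot be told apart because the use of strand in counting is not stated.

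Btg2, an antiproliferative cofactor of mRNA decay (chromosome 1, 134075170 to 134079120, minus strand), had 5.25, 11.6 and 24.4 CPM in NT, Low and High of K3174, and 7.64, 7.78 and 14.6 CPM in K3117. Both High libraries lay above all other libraries. Its rise in High over NT was 2.89-fold (log2 1.53 ± 0.27, adjusted p = 0.0021, edgeR). The value was 2.18 without the K3117 NT library and 0.98 without the K3174 NT library, and it passed in both cases (adjusted p = 2e-10 and 0.0012).

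Cdkn1a, the gene of the Cdk inhibitor p21 and the textbook arrest target (chromosome 17, 29090976 to 29100727, plus strand), had 65.7, 47.0 and 60.5 CPM in NT, Low and High of K3174, and 119.9, 102.9 and 91.0 CPM in K3117. Both leukemias had less in High than in NT, but the difference between the leukemias was larger and the labels overlapped. The High over NT fold was 0.839, with a 95% interval of 0.678 to 1.04 (log2 -0.25 ± 0.14, adjusted p = 0.27, edgeR). The interval excludes a rise as large as that of Gadd45a or Btg2. Cdkn1a shares 273 bases of exon with AC167363.2 on the opposite strand.

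The other arrest and growth genes did not pass in any comparison of the labels in the main edgeR fit. Ccng1, the gene of cyclin G1, which feeds back on p53 through MDM2, had the highest level of the 31 genes per kilobase of exon (62.4 CPM per kb) and a log2 difference of -0.02 ± 0.13. Ckap2, a gene of a spindle protein, gave -0.04 ± 0.13 and Plk2, a stress-induced kinase, 0.24 ± 0.26. Zmat3, an RNA-binding p53 target, followed the order of the labels in both leukemias, with 11.7, 13.2 and 15.2 CPM in K3174 and 28.3, 30.5 and 34.0 CPM in K3117. Its log2 difference was 0.32 ± 0.15 (adjusted p = 0.18, edgeR). Plk3, another stress-responsive kinase, had 8.27, 7.47 and 11.8 CPM in K3174 and 6.13, 9.61 and 11.0 CPM in K3117, and missed the threshold at 0.68 ± 0.22 (adjusted p = 0.053, edgeR). Plk3 passed with limma-voom (adjusted p = 0.043). In edgeR it passed with DESeq2 size factors (adjusted p = 0.048) or without the filter on low counts (adjusted p = 0.013). It did not pass with DESeq2, library sizes alone or upper quartile factors.

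Among the stress and metabolism genes, 1 of 4 was called in High against NT, where 17.3% of all genes tested were called. Sesn1, a sestrin that restrains mTORC1 and oxidative stress (chromosome 10, 41809935 to 41908424, plus strand), had 65.7, 59.4 and 54.8 CPM in NT, Low and High of K3174, and 87.5, 62.9 and 48.4 CPM in K3117. Its level followed the reverse order of the labels in both leukemias, and both High libraries lay below both NT libraries. Sesn1 fell 1.47-fold in High (log2 -0.56 ± 0.15, adjusted p = 0.023, edgeR). The call was lost when K3117 NT (-0.33, adjusted p = 0.074) or K3117 High (-0.36, adjusted p = 0.33) was left out.

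Sesn2, the sestrin that also senses leucine, gave -0.31 ± 0.15 (adjusted p = 0.19) and Fdxr, a mitochondrial ferredoxin reductase, -0.26 ± 0.16 (adjusted p = 0.34, edgeR). Both had less in High than in NT in each leukemia. Gdf15, a secreted stress cytokine, was the lowest of the 31 per kilobase of exon (0.497 CPM per kb) and was counted 8, 9 and 27 times in NT, Low and High of K3174 and 36, 45 and 33 times in K3117. The 4 genes together summed to 140.0, 120.4 and 111.9 CPM in NT, Low and High of K3174, and to 150.3, 136.7 and 103.9 CPM in K3117, so both High libraries were below both NT libraries.

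None of the 5 repair genes was called in any comparison of the labels by the main edgeR fit, DESeq2 or limma-voom. In High against NT 17.3% of all genes tested were called by edgeR. Of the repair genes, 0 of 5 passed there and 1 had an unadjusted p under 0.05. Xpc and Ddb2 recognise damaged bases in nucleotide excision repair, Polh and Polk copy past lesions, and Rrm2b supplies nucleotides for repair. Ddb2 had 2.85, 4.47 and 7.84 CPM in NT, Low and High of K3174, and 3.25, 2.53 and 4.13 CPM in K3117. Both High libraries lay above both NT libraries, at 0.88 ± 0.29 on the log2 scale (adjusted p = 0.061, edgeR). Ddb2 passed when K3117 NT (1.44, adjusted p = 0.00033) or K3117 High (1.16, adjusted p = 0.0094) was left out, and it shares 652 bases of exon with Acp2 on the opposite strand. For Polh, Rrm2b, Xpc and Polk the log2 differences were 0.02 ± 0.13, -0.09 ± 0.16, -0.09 ± 0.15 and 0.19 ± 0.19.

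Cell death genes held the largest changes, with 3 of 11 tested called higher and 1 lower. Over all genes tested, 10% were called higher and 7.32% lower. The median log2 fold change of the 11 was -0.03, with 5 genes above 0 and 6 below, so the group as a whole was not raised. Perp, a desmosomal membrane protein that promotes apoptosis (chromosome 10, 18845020 to 18857073, plus strand), had 12.6, 21.1 and 63.3 CPM in NT, Low and High of K3174, and 2.83, 6.15 and 15.8 CPM in K3117. Its level followed the order of the labels in both leukemias, and each K3174 library exceeded the K3117 library of its label. Perp rose 5.24-fold in High (log2 2.39 ± 0.17, adjusted p = 3.4e-06, edgeR), by 2.32 within K3174 and 2.45 within K3117.

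Fas, the death receptor that activates caspase-8 (chromosome 19, 34290666 to 34327772, plus strand), had 3.76, 7.65 and 13.7 CPM in NT, Low and High of K3174, and 4.72, 7.94 and 17.9 CPM in K3117. The 3 labels did not overlap, with NT lowest and High highest. The rise in High over NT was 3.71-fold (log2 1.89 ± 0.20, adjusted p = 5e-05, edgeR), and it was 1.85 within K3174 and 1.91 within K3117. Fas was the sole gene of the 31 that was also called without the K number as a block.

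Apaf1, the scaffold of the apoptosome that activates caspase-9 (chromosome 10, 90989311 to 91082770, minus strand), had 119.1, 164.1 and 205.7 CPM in NT, Low and High of K3174, and 141.0, 147.8 and 196.5 CPM in K3117. The 3 labels did not overlap here either. Apaf1 rose 1.55-fold in High (log2 0.63 ± 0.13, adjusted p = 0.0049, edgeR). Phlda3, an inhibitor of Akt (chromosome 1, 135766119 to 135769136, plus strand), had 6.48, 4.11 and 4.34 CPM in NT, Low and High of K3174, and 15.6, 12.5 and 9.56 CPM in K3117. High lay below NT within each leukemia, but the labels overlapped across leukemias. Phlda3 fell 1.56-fold (log2 -0.64 ± 0.20, adjusted p = 0.047, edgeR). That call was lost without each single library other than K3117 NT, with adjusted p between 0.057 and 0.35, with DESeq2 (adjusted p = 0.075), and with a minimum mean of 5 CPM (adjusted p = 0.05).

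The BH3-only genes, which trigger the mitochondrial route to apoptosis, were not called. Bbc3 (Puma) had 28.4, 17.9 and 17.2 CPM in NT, Low and High of K3174, and 25.2, 29.2 and 18.1 CPM in K3117. Both High libraries lay below both NT libraries, and the difference missed the threshold at -0.60 ± 0.20 (adjusted p = 0.059, edgeR). DESeq2 called it lower (-0.61, adjusted p = 0.043), as did library sizes alone (-0.66, adjusted p = 0.042). Pmaip1 (Noxa) had 119.5, 138.3 and 131.2 CPM in K3174 and 153.1, 139.2 and 135.1 CPM in K3117, and its High over NT fold was 0.981, with a 95% interval of 0.811 to 1.19.

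Trp53inp1, a stress protein that acts with p53 and in autophagy, had opposite differences between High and NT in the leukemias. It had 4.51, 10.0 and 21.9 CPM in NT, Low and High of K3174, and 25.1, 17.8 and 20.2 CPM in K3117. The High libraries were alike, and the NT libraries lay far apart. Over both leukemias the log2 difference was 0.84 ± 0.42 (adjusted p = 0.22, edgeR), and without the K3117 NT library it was 2.06 (adjusted p = 6.5e-09). The remaining death genes Aen, an apoptotic nuclease, Ei24, a membrane protein of the endoplasmic reticulum, Pidd1, an activator of caspase-2, and Tnfrsf10b, a TRAIL receptor, gave log2 differences between -0.15 and 0.05, with adjusted p of 0.46 or more.

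**Figure D2:**
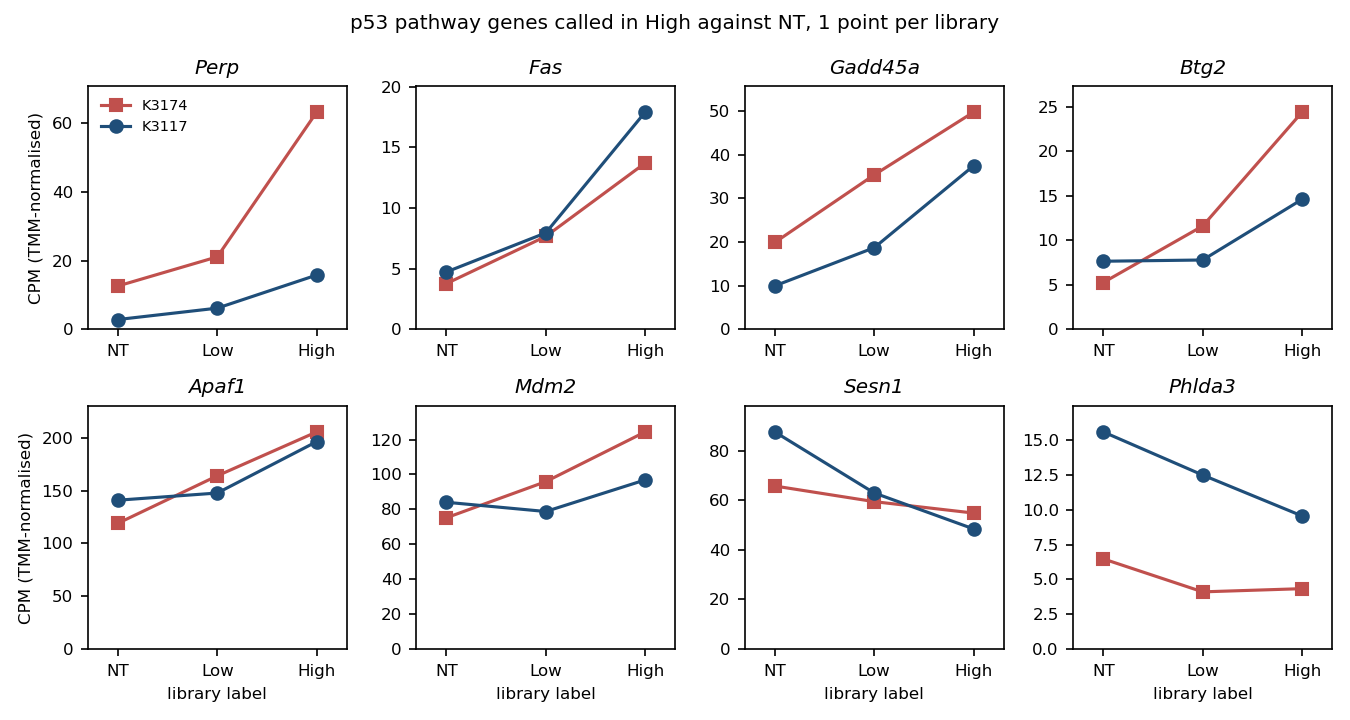
TMM-normalised CPM (linear axis from 0) of the 8 genes called in High against NT, by library label, with 1 point per library and lines joining the libraries of K3174 (squares) and K3117 (circles). Perp, Fas, Gadd45a, Btg2 and Apaf1 increase along NT, Low and High in both leukemias, and Sesn1 decreases in both.

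**Figure D3:**
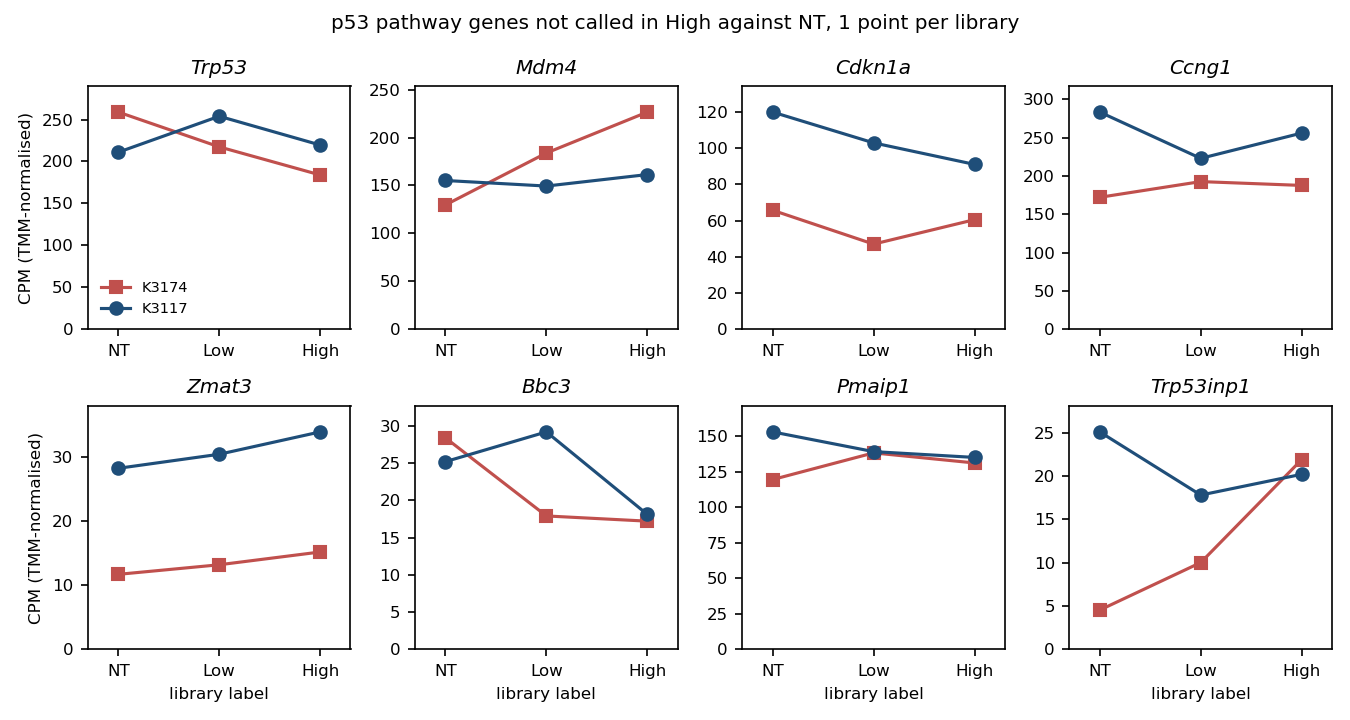
The same axes for 8 genes that were not called. Trp53, Cdkn1a, Ccng1, Bbc3 and Pmaip1 show no shared order over the 3 labels, and Trp53inp1 and Mdm4 increase with the labels in K3174 alone.

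The libraries labelled Low were next compared with NT. Gadd45a, Perp and Fas rose, by 1.83-fold, 1.88-fold and 1.85-fold, and no p53 pathway gene fell. These 3 were 9.68% of the 31 genes, where 3.34% of all genes tested were called (2.05% higher and 1.29% lower). Their log2 fold changes were 0.87 ± 0.17 for Gadd45a (adjusted p = 0.016), 0.91 ± 0.17 for Perp (adjusted p = 0.013) and 0.89 ± 0.20 for Fas (adjusted p = 0.032, edgeR). Low lay above NT within each leukemia for all 3, while across leukemias the Low and NT libraries overlapped for Gadd45a and Perp. Without the K3174 Low library all 3 calls were lost (adjusted p of 0.26 for Gadd45a, 0.055 for Perp and 0.48 for Fas), and without the K3117 Low library those of Perp (0.098) and Fas (0.078) were.

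High was then compared with Low. Perp, Fas, Gadd45a and Btg2 were higher in High, and no p53 pathway gene was lower. The 4 genes were 12.9% of the 31, where 5.48% of all genes tested were called (4.12% higher and 1.35% lower). The log2 fold changes were 1.48 ± 0.16 for Perp (adjusted p = 0.00034), 1.01 ± 0.18 for Fas (adjusted p = 0.008), 0.75 ± 0.16 for Gadd45a (adjusted p = 0.021) and 1.00 ± 0.26 for Btg2 (adjusted p = 0.047, edgeR). Perp kept its call whichever single library was left out. The call of Fas was lost without the K3117 Low library (adjusted p = 0.24), that of Gadd45a without K3117 Low (0.35), K3117 High (0.39) or K3174 Low (0.058), and that of Btg2 without K3117 Low (0.41), K3174 Low (0.058) or K3174 High (0.40). Btg2 was also not called with library sizes alone (0.075), upper quartile factors (0.062) or a minimum mean of 5 CPM (0.089). The comparisons with NT and the comparison of High with Low share libraries and are not independent.

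Of the 31 genes, 6 had CPM in the order NT, Low, High in both leukemias (Btg2, Gadd45a, Zmat3, Perp, Fas and Apaf1), or 19.4%, and 1 had the reverse order (Sesn1), or 3.23%. Among all genes tested the shares were 12.7% and 11%. High and NT differed in the same direction in both leukemias for 21 of the 31 (67.7%), close to the 65.7% of all genes. The share for Low and NT was 38.7%, against 52.5% of all genes, and that for High and Low was 77.4%, against 63.1%. The High libraries lay above the NT libraries without overlap for 9 of the 31 genes and below for 6, where 50.6% of all genes did not overlap in either direction.

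The calls above come from a fit with the K number as a block. Without the block, 1 of the 8 calls in High against NT remained (Fas), and 0 of the 3 in Low against NT and 0 of the 4 in High against Low did. Adjusted p-values for High against NT without the block were 0.25 for Perp, 0.11 for Gadd45a, 0.073 for Btg2, 0.051 for Apaf1, 0.19 for Mdm2, 0.13 for Sesn1 and 0.64 for Phlda3.

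Genes that act on p53 or lie beyond it were taken from 3 further lists. Of 20 other p53 regulators, 2 rose and 1 fell in High against NT by edgeR. The 3 called were 15.0% of the list, near the 17.3% of all genes tested that were called. Hipk2, a kinase that phosphorylates p53, had 63.8, 102.5 and 122.8 CPM in NT, Low and High of K3174, and 55.4, 117.0 and 145.4 CPM in K3117. It rose 2.24-fold in High (log2 1.16 ± 0.14, adjusted p = 0.00012) and 1.84-fold in Low (adjusted p = 0.0045, edgeR), and the NT libraries lay below the others. Kmt5a, which methylates histone H4 and p53, rose by 0.50 ± 0.11 (adjusted p = 0.0089), and Trp53bp1, a DNA break adaptor, fell by 0.40 ± 0.12 on the log2 scale (adjusted p = 0.041, edgeR). Cdkn2a, also of this list, was at 0.541-fold in High against NT and missed the threshold (adjusted p = 0.057, edgeR). DESeq2 and limma-voom called it lower there, and DESeq2 called it lower in Low against NT too. The kinases Atm, Atr, Chek1, Chek2 and Prkdc, which signal DNA damage to p53, gave log2 differences between -0.28 and 0.14 and were not called.

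Of 23 other p53 targets tested (25 listed, with too few reads for Trp73 and Rprm), 3 rose and 4 fell. The 7 called were 30.4% of those tested, where 17.3% of all genes tested were called. Cd82, a tetraspanin, had 34.8, 34.5 and 64.1 CPM in NT, Low and High of K3174 and 28.9, 29.7 and 54.7 CPM in K3117, a 1.87-fold rise in High over NT (log2 0.90 ± 0.13, adjusted p = 0.00043, edgeR) with Low close to NT. Pml, the nuclear body protein, rose 1.87-fold (0.90 ± 0.13, adjusted p = 0.0004) and Ier5, an immediate early gene, 1.53-fold (0.61 ± 0.14, adjusted p = 0.012, edgeR). Ak1, an adenylate kinase, fell by 1.65 ± 0.25 on the log2 scale, Kitl, the ligand of KIT, by 2.88 ± 0.69 and Trp53i11 by 1.87 ± 0.55 (adjusted p between 0.00069 and 0.035, edgeR). Ak1, Kitl and Trp53i11 were low, with at most 8.81, 1.74 and 3.49 CPM in any library. Bax, the pore-forming effector of apoptosis, was not called (-0.02 ± 0.16). The median of the 23 was -0.14, against -0.01 for all genes. Without the block, Hipk2 was the 1 regulator still called, and Cd82 and Pml were the 2 targets still called.

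The third list held 20 cell cycle genes that p53 lowers through p21 and the DREAM repressor, such as Ccnb1, Cdk1, Plk1 and Mki67. By edgeR 0 of 20 were called in High against NT, where 17.3% of all genes tested were, and 0 had an unadjusted p under 0.05. DESeq2 and limma-voom called 0, with 1 unadjusted p under 0.05 each. Their log2 differences ranged from -0.23 to 0.25, with a median of -0.02. Their sum, taken without TMM factors, was between 4375 and 4681 CPM in NT, 4201 and 4412 CPM in Low, and 4102 and 4502 CPM in High. The labels overlapped.

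**Figure D4:**
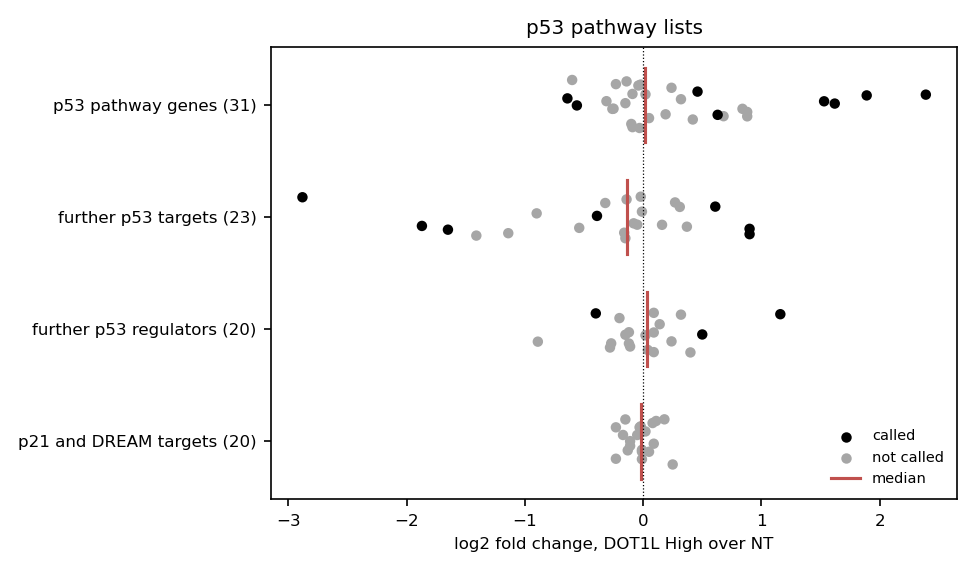
Log2 fold change of High over NT for each tested gene of 4 lists (vertical scatter has no meaning), black where called, with the median as a red line. The medians lie near 0 in all 4 lists, and the p21 and DREAM targets stay between -0.23 and 0.25 while the other lists hold called genes on both sides.

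The leukemias themselves differed in the level of several p53 targets. This comparison was added after the values were seen and was made over all 3 labels (3 libraries each). Each side is a single leukemia. The p-values therefore rest on the spread between libraries within the leukemias and do not measure how leukemias vary. K3174 had less Cdkn1a, Ccng1, Plk2, Zmat3, Gdf15 and Phlda3 than K3117 and more Perp and Gadd45a. These 8 genes were 25.8% of the 31, where 9.37% of all genes tested were called (3.05% higher and 6.32% lower in K3174). Cdkn1a was between 47.0 and 65.7 CPM in K3174 and between 91.0 and 119.9 CPM in K3117, a log2 difference of -0.86 ± 0.12 (adjusted p = 0.00054, edgeR). Zmat3 was between 11.7 and 15.2 CPM in K3174 and between 28.3 and 34.0 CPM in K3117 (-1.21 ± 0.12, adjusted p = 5.8e-05). For Phlda3 the ranges were 4.11 to 6.48 CPM in K3174 and 9.56 to 15.6 CPM in K3117 (-1.34 ± 0.16, adjusted p = 0.00029).

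Without overlap, K3174 lay below K3117 in 8 of the 31 genes (25.8%), the 6 called lower plus Polk and Tnfrsf10b, against 8.83% of all genes tested, and above it in 1 (Ckap2), against 6.28%. Perp was 3.92-fold higher in K3174 (log2 1.97 ± 0.14, adjusted p = 3.7e-06) and Gadd45a 1.70-fold (0.77 ± 0.14, adjusted p = 0.0036, edgeR), both on top of their rise with the labels in each leukemia. Trp53 itself gave -0.06 ± 0.12 (adjusted p = 0.86) and Mdm2 0.16 ± 0.12 (adjusted p = 0.53). The median of the 31 genes was -0.06, against 0.00 for all genes. Without the K3117 Low library the calls of Gdf15 (adjusted p = 0.42) and Plk2 (adjusted p = 0.052) were lost, and without the K3174 Low library that of Gdf15 (adjusted p = 0.37), which DESeq2 did not call either (adjusted p = 0.10).

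**Figure D5:**
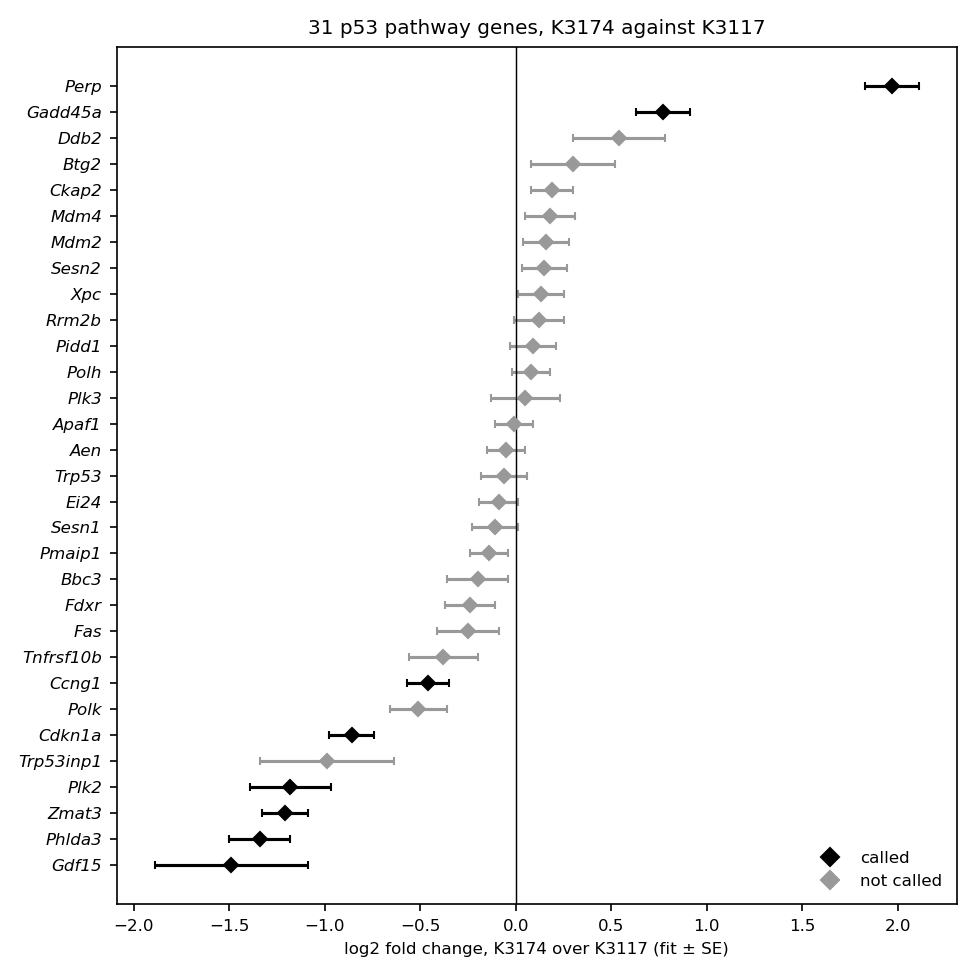
Log2 fold change of K3174 over K3117 with its SE for the 31 tested genes, from the fit over all 6 libraries, black where called. Perp and Gadd45a stand to the right and Cdkn1a, Zmat3, Phlda3, Plk2, Gdf15 and Ccng1 to the left, while Trp53 lies at -0.06.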

How the data were processed

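Libraries were read in pairs of 150 bases on an Illumina HiSeq, per the labels' protocols. The authors deposited whole-number counts per gene, taken without change. Kallisto, STAR, STAR-Fusion, DESeq2 and the build mm10 are listed, without roles, per the submitters' processing notes. Not given in the sources used here were the counting tool, its strand setting and its annotation. Symbols matched 99.5% of IDs, and positions follow the GENCODE annotation of GRCm38. Intervals cover the fitted spread only.

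In R 4.3.3 with edgeR 4.0.16, 15812 genes passed filterByExpr, TMM factors were between 0.973 and 1.04, and a quasi-likelihood model of 3 labels with the K number as a blocking factor was fitted over the 6 libraries (2 residual and 9.38 prior degrees of freedom, common biological coefficient of variation 12%). Calls need a Benjamini-Hochberg adjusted p under 0.05 over all genes. The SE is the log2 fold change divided by the root of F, and differences within a leukemia add a prior count of 2. DESeq2 1.42.0 and limma 3.58.1 (voom) were alternatives. The procedure was tested on simulated data with 200 changed genes.

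The K number is taken as 1 leukemia because the titles give it to 1 library of every label. Same-numbered libraries deviated together (correlation 0.57 for NT and Low, 0.44 for NT and High, 0.64 for Low and High). Every pair of libraries differed by more than sampling noise (chi-square over its degrees of freedom was 24.2 or more). The members, roles and lists were chosen with earlier results of these data known. All members are named, and of the further lists the called genes with the smallest p, at most 8 per list, with a few uncalled genes named after their values were seen. Promoter sequences are from RefSeq. Of the further p53 targets called lower, 1 is not reported here.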

Additional observations from a re-analysis of the deposited data

Results flagged for a closer look

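For 3 of the p53 pathway genes the 2 leukemias moved in opposite directions between Low and NT by at least 0.25 on the log2 scale, and for Trp53inp1 in both comparisons with NT. Each label holds 1 library per leukemia, so the difference between the leukemias was not tested. For Trp53inp1, High minus NT was 2.26 in K3174 and -0.31 in K3117, and Low minus NT was 1.14 in K3174 and -0.49 in K3117. For Trp53, Low minus NT was -0.25 in K3174 and 0.27 in K3117. Gdf15 gave -0.31 in K3174 and 0.39 in K3117 for Low minus NT, on at most 45 counts per library. Ddb2 gave 0.64 in K3174 and -0.35 in K3117 for Low minus NT.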

How the results depend on the processing

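Over 14 alternative settings, 265 of 312 values of called genes kept their call, 47 lost it and 0 reversed direction. The 312 values include those of K3174 against K3117, which has no setting without the block. In that comparison only Gdf15 and Plk2 lost a call in any setting, and the other losses fell on the comparisons of the labels. Without the replicate block, 1 gene was called in High against NT in place of 8, 0 in Low against NT in place of 3, and 0 in High against Low in place of 4. Without a filter on low counts 13 were called in High against NT. Leaving out each library in turn gave 6 to 15 calls in High against NT (15 without K3117 NT), 0 to 7 in Low against NT (0 without K3174 Low, 1 without K3117 Low, 7 without K3117 NT, 5 without K3174 NT), 1 to 8 in High against Low, and 6 to 15 for K3174 against K3117. With a library left out, the lone remaining library of a label is assumed to vary like the others. Upper quartile scaling moved the median of all genes in High against NT to -0.11, against -0.01 with TMM. Eda2r, left out by the filter on low counts, had at most 32 counts in any library, so its values rest on few reads, as do those of Gdf15 at 45 or fewer. The causes of these changes were not tested.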
